A study of Homo sapiens with 4 samples.

Results

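Exons of 6 formin genes, FMNL2, FMNL3, DAAM1, DIAPH1, DIAPH2 and DIAPH3, were followed in U87MG cells in which RBFOX proteins were targeted with a decoy oligonucleotide. U87MG is an established glioblastoma cell line. All cells were transfected with an RNA oligonucleotide at 2.5 µM using lipofectamine 2000, either RBFOXi, which carries repeats of the RBFOX binding motif, or SCRM, a scrambled control. Each oligonucleotide was given to 2 independent biological replicates, and no untransfected cells were included. According to the labels, the oligonucleotide of RBFOXi replicate 1 carried the dye Cy5, while no dye is named for the other 3 libraries, so any effect of the dye cannot be told apart from the difference between the RBFOXi libraries. Events were taken by gene symbol, which gave 55 of the 121269 events in the 5 tables, 47 skipped exon events at 42 distinct exons and 8 events of mutually exclusive exons. The tables of retained introns and of alternative 3′ or 5′ splice sites listed no formin event.

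Formins are actin assembly proteins that nucleate and elongate unbranched filaments through their FH2 domain, fed with profilin-bound actin by the FH1 domain. Diaphanous-related formins are held closed by contact between the N-terminal and C-terminal regions, and binding of a small GTPase to the N-terminal region opens them. RBFOX1 and RBFOX2 bind UGCAUG in pre-mRNA and are known to raise inclusion of an exon when bound in the intron downstream of it and to lower inclusion when bound upstream.

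The proportion spliced in (PSI) is the share of transcripts that hold an exon, from 0 to 1, computed from the counts of the inclusion and skipping forms divided by their effective lengths. Delta PSI is the mean PSI with RBFOXi minus that with SCRM. Calls required a delta PSI of 0.1 or more in either direction together with an adjusted p-value under 0.05 from limma, fitted to log2 odds of inclusion and adjusted by Benjamini-Hochberg over all tested skipped exons. Of the 47 formin events, 21 had enough counts of both forms to be tested, and 2 of them (9.52%) were called, both lower with RBFOXi. Over all 39615 tested skipped exon events 27 (0.0682%) were called, and 21 (0.053%) were called and lower. The called exons were the 115 nt exon of FMNL3 and the 27 nt exon of DIAPH1. Neither call was kept without SCRM replicate 1, without SCRM replicate 2 or with a pseudocount of 0.1.

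The sequences of the exons that carry these differences, and of their counterparts in related formins, follow from the hg19 genome, 5′ to 3′ on the strand of the gene. Capitals mark TGCATG, which is the DNA form of the motif. The first 3 exons are each the second exon of their gene and lie wholly in the coding sequence. They are shown with the first 60 nt of the downstream intron because they take the same place in 3 genes and differ in the motif beside them.

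DIAPH1 27 nt exon (chr5:140967791-140967817, minus strand): actctgaagcggctcatggcagatgag
DIAPH1 intron after it (chr5:140967731-140967790): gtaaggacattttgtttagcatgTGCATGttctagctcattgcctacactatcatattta
DIAPH2 33 nt exon (chrX:95990757-95990789, plus strand): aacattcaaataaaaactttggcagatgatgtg
DIAPH2 intron after it (chrX:95990790-95990849): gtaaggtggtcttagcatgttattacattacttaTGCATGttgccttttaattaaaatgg
DIAPH3 33 nt exon (chr13:60707091-60707123, minus strand): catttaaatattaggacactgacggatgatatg
DIAPH3 intron after it (chr13:60707031-60707090): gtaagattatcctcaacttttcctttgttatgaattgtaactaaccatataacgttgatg

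The DIAPH2 and DIAPH3 exons were identical at 19 of 33 bases. Placed at the 3′ ends with no gap or shift, the DIAPH1 exon matched the last 27 bases of the DIAPH3 exon at 14 positions. Those of the DIAPH2 exon matched at 10. The DIAPH1 and DIAPH2 exons share a run of bases that this placement does not line up, so the counts do not rank their likeness. Within 300 nt downstream, UGCAUG started at base 24 and base 163 after the DIAPH1 exon and at base 35 after the DIAPH2 exon, counted from 1 at the first intron base. After the DIAPH3 exon its first copy started at base 1474.

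The next pair lies close to the end of the coding sequence of FMNL3 and FMNL2. Each exon holds 89 nt of coding sequence in GENCODE, followed by the stop codon, so that its inclusion sets the C-terminal end of the protein. Only the coding bases are printed, with the start of the intron that follows the exon.

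FMNL3 115 nt exon, coding part (chr12:50040448-50040536, minus strand): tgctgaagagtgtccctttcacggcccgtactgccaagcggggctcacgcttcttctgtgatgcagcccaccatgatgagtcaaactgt
FMNL3 intron after it (chr12:50040232-50040421): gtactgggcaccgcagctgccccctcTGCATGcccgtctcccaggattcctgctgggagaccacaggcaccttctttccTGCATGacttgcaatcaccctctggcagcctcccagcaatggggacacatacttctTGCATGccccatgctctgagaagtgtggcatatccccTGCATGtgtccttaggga
FMNL2 126 nt exon, coding part (chr2:153499933-153500021, plus strand): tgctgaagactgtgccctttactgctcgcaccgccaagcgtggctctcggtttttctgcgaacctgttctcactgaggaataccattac
FMNL2 intron after it (chr2:153500059-153500188): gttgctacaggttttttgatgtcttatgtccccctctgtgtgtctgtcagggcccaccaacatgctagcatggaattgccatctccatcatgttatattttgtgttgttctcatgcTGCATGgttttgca

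The coding parts were identical at 60 of 89 bases. The FMNL3 intron held 4 copies of UGCAUG within the first 300 nt, at bases 27, 80, 136 and 173, and the FMNL2 intron held 1, at base 117.

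The last sequence is the 21 nt DIAPH2 exon with the 40 nt before it, shown because its copy of the motif stands on the other side of the exon, with its first base 9 nt upstream. No exon of DIAPH2 in GENCODE overlaps it.

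DIAPH2 21 nt exon (chrX:96018099-96018119, plus strand): atagttggaagtaaagttacg
DIAPH2 intron before it (chrX:96018059-96018098): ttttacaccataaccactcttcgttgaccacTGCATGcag

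Counts over skipped exon events ranged from 114415530 to 136097319 per library, and a read that fits several events is counted in each. SCRM replicate 1 stood apart, and its part in the results was not tested beyond leaving it out. Its median count per tested event was 285, against 469 to 580 in the other 3 libraries, and in 94.3% of 4806 genes with at least 5 skipped exons the ratio of counts at the 5′-most exon to those at the 3′-most exon was lower than in SCRM replicate 2 (median 0.435-fold). In the RBFOXi libraries the ratio was also lower in most genes (84.2% and 85.4%), but by less (median 0.838-fold and 0.833-fold). The glioma and mesenchymal markers VIM and TNC were well covered, CD44 less so, and NES had 1 skipped exon event. GFAP, S100B, SOX2 and CHI3L1 have none and could not be read. Some markers of other cell types were also well covered. The read density described below was 180 to 242 for the neuronal TUBB3 and 468 to 867 for the immune CD68. For VIM, TNC and CD44 it was 2640 to 6499, 66.1 to 361 and 8.92 to 13.9. The neuronal SYP, MAP2 and SNAP25 lay between 0.732 and 16.0, and the range of SNAP25 (6.10 to 16.0) holds that of CD44. RBFOX3, PTPRC, EPCAM, CDH1, PECAM1 and CDH5 have no event. Cell identity was not tested. RBFOX2, the RBFOX gene with events here, is covered by 11 skipped exon events, and RBFOX1 by 0.

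The loss of counts towards the 5′ end in SCRM replicate 1 was seen in each of the 6 formin genes. At the 5′-most DIAPH1 exon this library had 10 counts where SCRM replicate 2 had 235, and at the 3′-most exon it had 800 against 1378. At the 5′-most DAAM1 exon the counts were 29 against 617, and at the 3′-most 39 against 140. The second exons of DIAPH1, DIAPH2 and DIAPH3 therefore rest on 10, 11 and 4 counts in this library. Over the 42 exons, SCRM replicate 1 had a median of 14.9% of the counts of SCRM replicate 2, against 68.4% and 84.5% in the RBFOXi libraries.

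**Figure D1:**
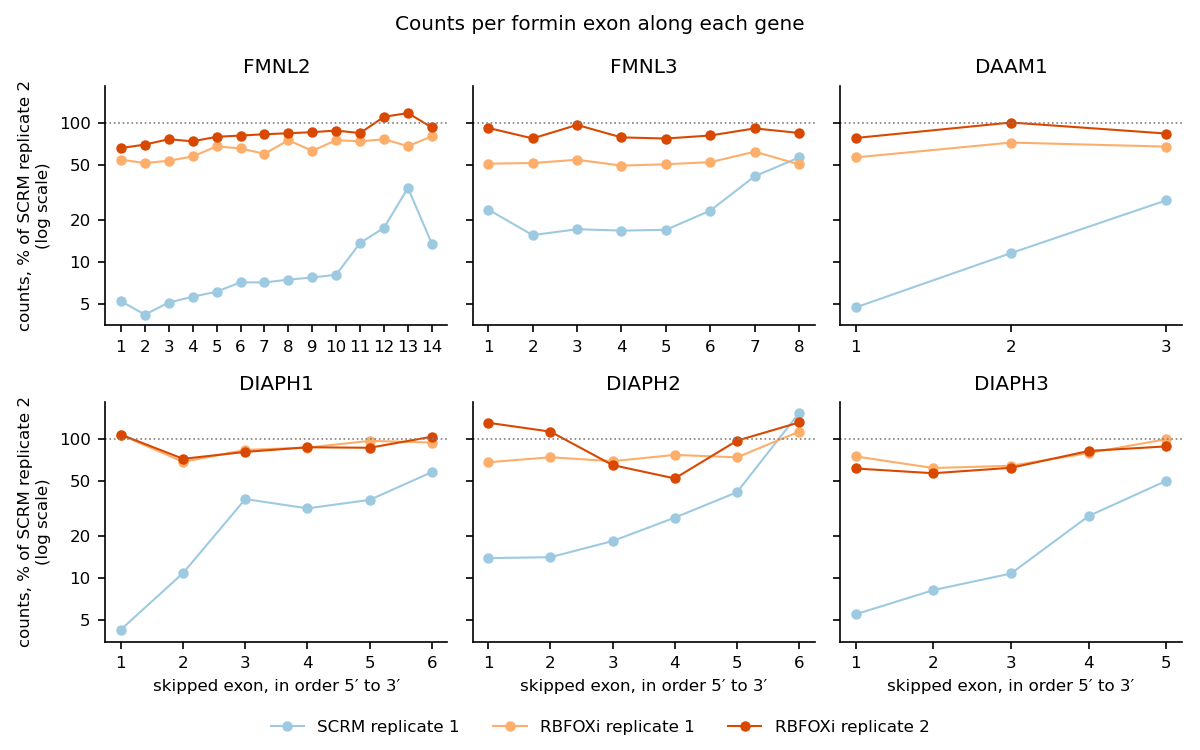
Counts of inclusion and skipping forms at each skipped exon of the 6 formin genes, as a percentage of the counts in SCRM replicate 2 (log scale, dotted line at 100%), with exons in order from the 5′ to the 3′ end. SCRM replicate 1 starts at 4.26% in DIAPH1 and 4.70% in DAAM1 and is higher at the last exon than at the first in all 6 genes, while the RBFOXi libraries stay between 49.5% and 132%.

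Most formin exons were included in nearly every transcript in both conditions. Of the 42 exons, 33 had a mean PSI over 0.95, 1 had a mean PSI under 0.05 and 8 lay between. At the most covered event of the 33 exons no library was below 0.935, and delta PSI ranged from -0.0284 to 0.0324. A less covered event at a DIAPH2 exon, not tested, had a delta PSI of -0.303. It rests on RBFOXi replicate 2 (PSI 0.393, on 7 counts), with a PSI of 1 in the other libraries on 8 to 18 counts. Of the 42 exons, 22 were not tested at their most covered event, 21 of them because they had fewer than 4 skipping counts over all libraries. The remaining one is the DIAPH3 33 nt exon, with 4 counts in SCRM replicate 1. One further DIAPH3 exon was tested through a second event. Among the 21 tested events the median delta PSI was -0.00481, against -5.65e-05 over all tested events. By delta PSI, 16 were lower and 5 higher with RBFOXi, but these counts depend on the measure. The change in log2 odds was positive in some events counted as lower, such as DAAM1 72 nt (1.07), DIAPH3 177 nt (0.864), FMNL2 125 nt (0.952) and FMNL2 203 nt (0.610). In these exons SCRM replicate 1 had 0 skipping counts and thus a PSI of 1.00, on 19 to 63 counts. At the unadjusted level, 4 of the 21 had a p-value under 0.05, against 3.61% of all tested events. The libraries of the groups did not overlap in 12 of the 21 (57.1%), against 30.8% of all tested events. Of these 12, 8 were lower with RBFOXi (background 16.5%) and 4 were higher (background 14.3%). Several of these separations are small, as in the 84 nt second exon of FMNL3 (PSI 0.973 and 0.977 with RBFOXi, 1.00 and 0.993 with SCRM). In this exon and in FMNL2 153 nt, FMNL2 69 nt and DIAPH3 105 nt, also lower, SCRM replicate 1 had 0 skipping counts. Its counts there were 64, 49, 34 and 41. SCRM replicate 1 covered formin exons more thinly than tested events in general, so the formin and background shares are not strictly alike.

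**Figure D2:**
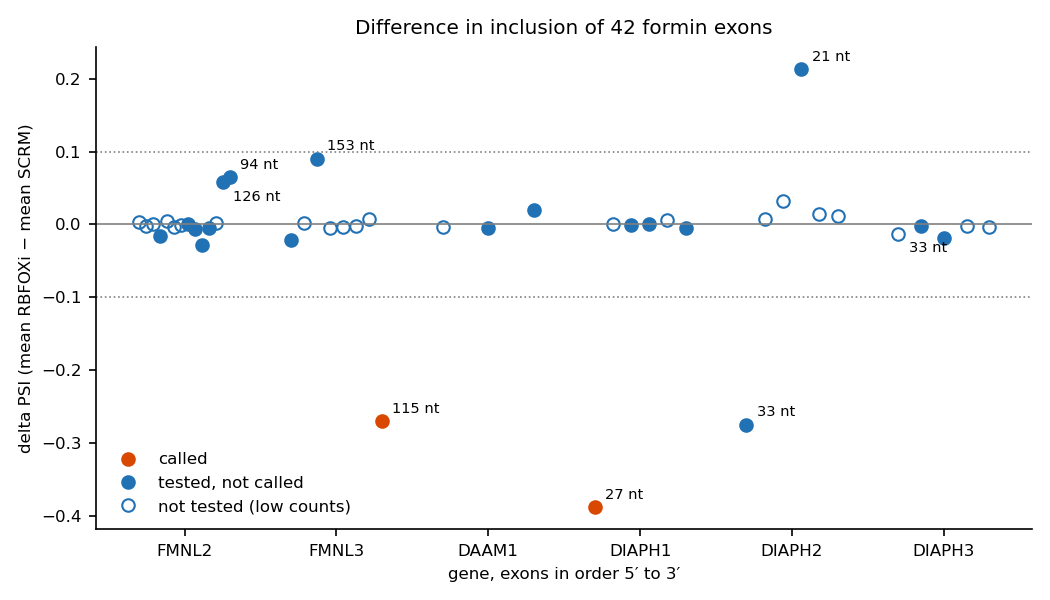
Delta PSI (mean RBFOXi minus mean SCRM) of the 42 formin skipped exons, each at its most covered event, grouped by gene and ordered from 5′ to 3′, with dotted lines at -0.1 and 0.1. Called exons are orange, tested exons that were not called are filled blue and exons with too few counts at their most covered event are open; the exons beyond the dotted lines are FMNL3 115 nt, DIAPH1 27 nt, DIAPH2 33 nt and DIAPH2 21 nt.

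The DIAPH proteins are the diaphanous formins, and the second exon of their genes lies in the N-terminal part of the protein, ahead of the catalytic FH2 domain. The PSI of the DIAPH1 27 nt exon was 0.612 and 0.455 with RBFOXi, against 0.896 and 0.948 with SCRM. Both RBFOXi libraries were below both SCRM libraries. The mean fell from 0.922 ± 0.0366 to 0.533 ± 0.111 (SD, n = 2 each), a delta PSI of -0.388 and a change in log2 odds of -3.31 ± 0.528 (SE; limma, adjusted p = 0.0370). The counts behind these values were 253, 254, 10 and 235, in the order RBFOXi replicates 1 and 2 and SCRM replicates 1 and 2.

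With 10 counts, the PSI of SCRM replicate 1 has an exact 95% binomial interval of 0.632 to 0.988, which overlaps that of RBFOXi replicate 1 (0.549 to 0.671). Intervals cover counting error only, since reads were not tagged by molecule. The interval of SCRM replicate 2 (0.922 to 0.966) lies above those of both RBFOXi libraries. Without SCRM replicate 1 the delta PSI was -0.414, and the adjusted p-value was 0.0993 (limma, with the lone SCRM library assumed to vary like the RBFOXi pair). Without SCRM replicate 2 it was -0.363 (adjusted p = 0.407), and without RBFOXi replicate 2 it was -0.310 (adjusted p = 0.0639, limma in each case). With a pseudocount of 0.1 the adjusted p-value was 0.633 (limma).

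The DIAPH2 33 nt exon, at the same place in its gene, differed more between the RBFOXi libraries than between the group means. Its PSI was 0.879 and 0.498 with RBFOXi and 0.943 and 0.985 with SCRM. Only RBFOXi replicate 2 was far from the other libraries. The means were 0.689 ± 0.269 and 0.964 ± 0.0294 (SD, n = 2 each), and the delta PSI of -0.275 was not called (limma, unadjusted p = 0.00526, adjusted p over 0.999). The counts were 54, 104, 11 and 79. Without RBFOXi replicate 1, the library whose oligonucleotide carried Cy5, the delta PSI was -0.466, and without RBFOXi replicate 2 it was -0.0846. Each of these leaves a lone RBFOXi library, with no spread within that group to set it against.

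The DIAPH3 33 nt exon had a PSI of 0.787 and 0.884 with RBFOXi and of 0.832 and 0.865 with SCRM. The groups overlapped, with a mean of 0.836 ± 0.0688 against 0.849 ± 0.0230 (SD, n = 2 each). Its PSI was lower than that of its DIAPH2 counterpart in both SCRM libraries, by 0.111 and 0.120, and it was not tested because SCRM replicate 1 held 4 counts. Without that library the delta PSI was -0.0290.

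The 3 second exons were compared as pairs, by the difference in their change of log2 odds. The change of the DIAPH1 exon minus that of the DIAPH3 exon was -3.38 log2 units, DIAPH2 minus DIAPH3 was -3.27, and DIAPH1 minus DIAPH2 was -0.105. In an exact two-sided permutation test of 2 against 2 libraries the smallest possible p-value is 0.333. The comparisons of DIAPH1 and of DIAPH2 with DIAPH3 gave this value, and DIAPH1 against DIAPH2 gave an exact permutation p = 1. Adjusted over the 5 pairs of exons compared here, the smallest was 0.417. With 2 libraries a group this test could not have passed 0.05, so it does not show whether the exons differ, and the DIAPH3 values include the library with 4 counts.

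The other alternative exon of DIAPH2, of 21 nt, had a PSI of 0.922 and 0.953 with RBFOXi and of 0.606 and 0.843 with SCRM. Both RBFOXi libraries were above both SCRM libraries. The means were 0.938 ± 0.0221 and 0.724 ± 0.168 (SD, n = 2 each), a delta PSI of 0.213 that was not called (limma, unadjusted p = 0.0254, adjusted p over 0.999). The counts were low, at 34, 23, 12 and 44, and without SCRM replicate 1 the delta PSI was 0.0947. Computed from the counts with no length correction, the difference was 0.347.

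Further exons of DIAPH1 showed no difference of this size. The 53 nt exon near the 3′ end, chr5:140898511-140898563, is followed by UGCAUG at base 11 of the intron and was skipped in nearly all transcripts, with a PSI of 0.00783 and 0.00517 with RBFOXi and of 0.0105 and 0.0122 with SCRM, on 800 to 1439 counts. Its change in log2 odds was -0.82 ± 0.628 (SE; limma, unadjusted p = 0.216). The 9 nt exon, chr5:140950995-140951003, had a PSI of at least 0.9988 in each of the 4 libraries.

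The FMNL proteins are formins linked to filopodia and lamellipodia, and their C-terminal region holds the part that contacts the N-terminal region in the closed form. The FMNL3 115 nt exon had a PSI of 0.765 and 0.638 with RBFOXi and of 0.969 and 0.975 with SCRM. The SCRM libraries were close to full inclusion and to each other, and both RBFOXi libraries were lower. The mean fell from 0.972 ± 0.00484 to 0.702 ± 0.0898 (SD, n = 2 each), with a change in log2 odds of -3.80 ± 0.427 (SE; limma, adjusted p = 0.00214). The share of transcripts without the exon was carried by 60 and 169 skipping counts with RBFOXi and by 8 and 11 with SCRM.

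This exon was covered by 485, 817, 544 and 960 counts, so the thin 5′ coverage of SCRM replicate 1 touches it less than the second exons of the DIAPH genes. The exact 95% intervals of the SCRM libraries, 0.939 to 0.986 and 0.957 to 0.988, lie above those of the RBFOXi libraries, 0.713 to 0.813 and 0.598 to 0.678. With 1 SCRM library left out the delta PSI was -0.274 without replicate 1 and -0.267 without replicate 2, but the adjusted p-values rose to 0.0833 and 0.111 (limma). With a pseudocount of 0.1 the adjusted p-value was 0.206 (limma). Computed from the counts with no length correction, the delta PSI was -0.152.

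**Figure D3:**
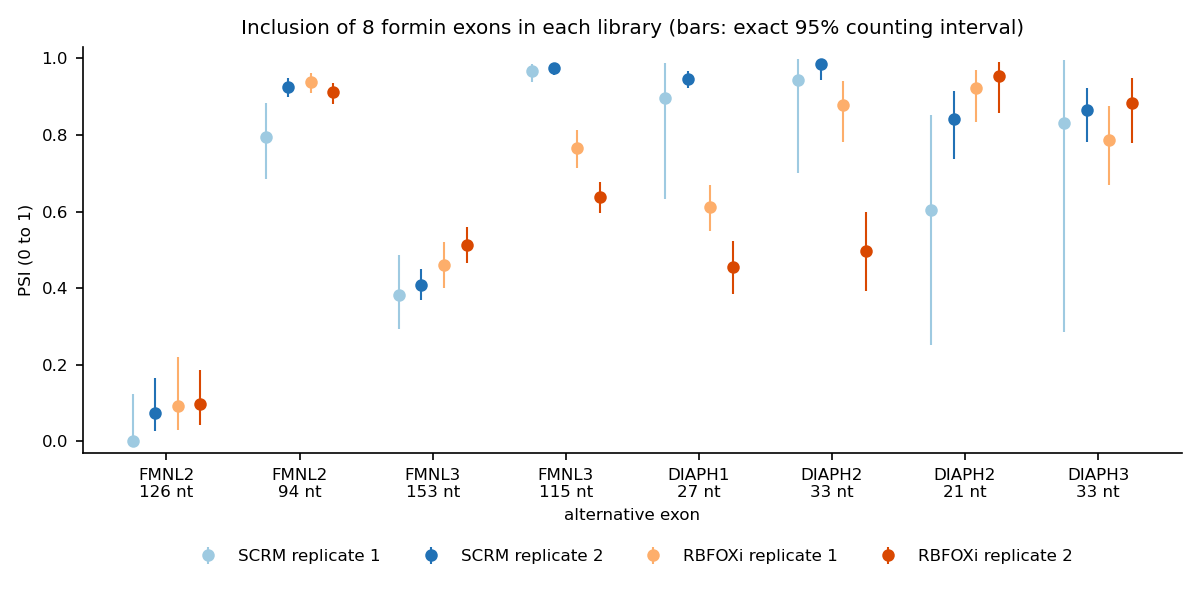
PSI (0 to 1) of the 8 formin exons with intermediate inclusion, by library, with exact 95% binomial intervals that cover counting error only. In FMNL3 115 nt and DIAPH1 27 nt both RBFOXi libraries (orange) lie below both SCRM libraries (blue); in DIAPH2 33 nt RBFOXi replicate 2, at 0.498, lies far below the other 3, and the intervals of SCRM replicate 1 are the widest of the 4 libraries in all exons but FMNL3 115 nt and FMNL2 126 nt.

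The FMNL2 exon at the same place, of 126 nt, was nearly absent. Its PSI against skipping was 0.0937 and 0.0979 with RBFOXi and 0 and 0.0753 with SCRM, on 13 to 45 counts, with 0 inclusion counts in SCRM replicate 1, where the exact 95% interval reaches 0.125. RBFOXi libraries were above SCRM libraries by less than these intervals, and the event was not called (limma, unadjusted p = 0.146). The exon shares its intron with a 94 nt exon, chr2:153501948-153502041, which overlaps no FMNL2 exon in GENCODE, and the same skipping counts serve both events. Of the 3 forms combined, the form with the 126 nt exon made up 0% to 0.944% per library and the form with the 94 nt exon 79.5% to 93.4%.

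The 94 nt exon had a PSI of 0.940 and 0.912 with RBFOXi and of 0.795 and 0.927 with SCRM. The groups overlapped, and the low value is that of SCRM replicate 1. The delta PSI of 0.0650 (limma, unadjusted p = 0.166) became -0.000678 without that library. Between the counterpart exons, PSI was higher in FMNL3 than in FMNL2 by 0.540 to 0.969 in every library. The change of the FMNL3 115 nt exon minus that of the FMNL2 126 nt exon was -5.38 log2 units (exact permutation p = 0.333, the smallest possible).

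Exon 6 of FMNL3 and of FMNL2 has 153 nt in both genes, is wholly coding, and was identical at 100 of 153 bases, yet its inclusion differed between the genes. In FMNL3, chr12:50052225-50052377, the PSI was 0.460 and 0.512 with RBFOXi and 0.383 and 0.409 with SCRM, on 107 to 621 counts. In FMNL2, chr2:153417397-153417549, it was 0.978 and 0.974 with RBFOXi and 1.00 and 0.984 with SCRM. The FMNL3 exon was thus alternative in both conditions and lower than its FMNL2 counterpart by 0.462 to 0.617 in every library. Its RBFOXi libraries were above its SCRM libraries, with a delta PSI of 0.0899 that was not called (change in log2 odds 0.53 ± 0.342 SE; limma, unadjusted p = 0.145). The difference in change between the counterparts was 0.79 log2 units (exact permutation p = 0.333). Neither exon has UGCAUG within 300 nt. The shorter GCAUG stands upstream of the FMNL3 exon, with its first base 25 nt away, and is absent within 300 nt of the FMNL2 exon.

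DAAM1 is a formin of Wnt planar cell polarity signalling. Its 3 skipped exons, of 220, 72 and 61 nt, were included in nearly all transcripts, with PSI between 0.968 and 1.00 in every library and delta PSI between -0.00443 and 0.0196. No UGCAUG lay within 300 nt of them.

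All of the exons in the 8 events of mutually exclusive exons are also listed as skipped exons. The events pair neighbouring exons, except in FMNL3, where the alternative 153 nt exon lies between the paired 84 nt and 109 nt exons. All 8 were tested and 0 were called by limma, as were 0 of the 26176 events of this type (0%). At the unadjusted level, 1 of the 8 and 1.51% of all events had a p-value under 0.05. That event sets the 177 nt exon of DIAPH2 (chrX:95993585-95993761) against the 105 nt exon (chrX:96013153-96013257). Both exons had a PSI of at least 0.935 as skipped exons in every library, so the values of this event compare counts of 2 exons that most transcripts hold together and are not shares of transcripts. The value of the 177 nt exon was 0.879 and 0.968 with RBFOXi and 0.628 and 0.835 with SCRM. The RBFOXi libraries were higher, by 0.192 on average (limma, unadjusted p = 0.0224, adjusted p over 0.999), on 101, 173, 27 and 146 counts. It was called by Fisher's exact test on summed counts (adjusted p = 0.00379), which covers counting error only and not the spread between libraries. The most different events of the other genes had a delta PSI of 0.0614 in FMNL2, 0.0276 in DIAPH3 and 0.0216 in FMNL3.

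UGCAUG was present within 300 nt of 10 of the 42 formin exons (23.8%), on either side, against 15.8% of 28606 tested exons. Downstream it was present at 6 (14.3%, against 8.42%) and upstream at 4 (9.52%, against 8.13%). The 42 exons include 22 not tested at their most covered event, while the background holds tested exons only, so the sets are unlike. Among the 10 exons with UGCAUG, FMNL2 124 nt and FMNL3 75 nt were the untested ones. Tested formin exons thus had it more often than all 42. Of the 8 exons with intermediate inclusion, 4 had it downstream and 1 upstream. The 6 exons with a copy downstream include the DIAPH1 27 nt, DIAPH2 33 nt and FMNL3 115 nt exons, whose delta PSI was -0.388, -0.275 and -0.270. The others were the FMNL2 126 nt and DIAPH1 53 nt exons, which are mostly skipped, and the FMNL2 124 nt exon, with 1 copy at base 61 and a PSI of at least 0.996 in every library. For the shorter GCAUG the shares were 38.1% against 41.9% within 300 nt and 31.0% against 16% within 100 nt. Among formin exons with GCAUG within 300 nt, those not tested were FMNL2 124 nt, FMNL3 75 nt and FMNL3 84 nt (chr12:50055749-50055832). The share was thus higher in tested formin exons than in all 42, and the lower value does not hold for tested exons alone. Presence of the letters does not show that RBFOX2 was bound.

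**Figure D4:**
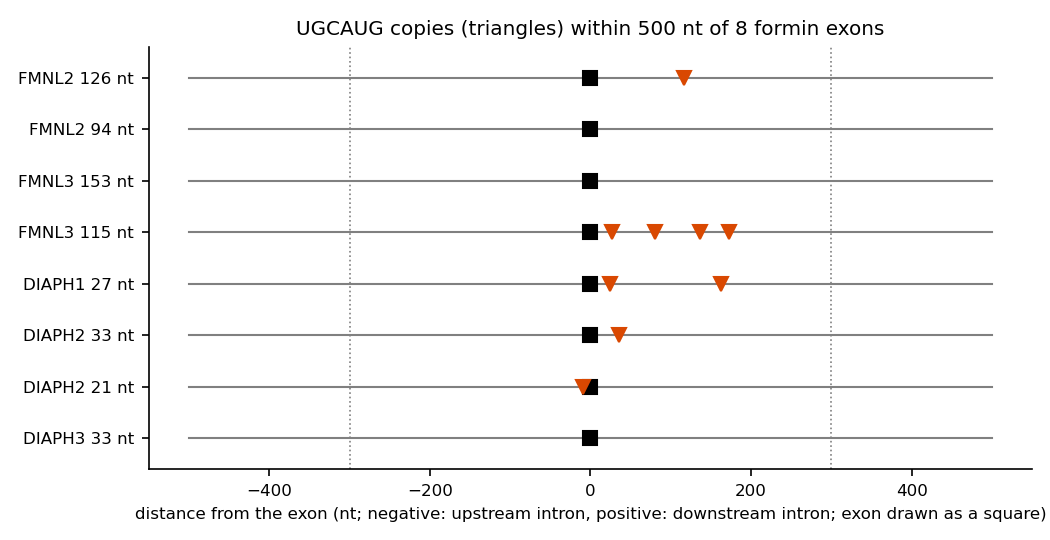
Positions of UGCAUG (triangles) within 500 nt of the 8 formin exons with intermediate inclusion (squares, not to scale), as distance in nt into the upstream intron (negative) or the downstream intron (positive), with dotted lines at 300 nt. FMNL3 115 nt has 4 copies downstream, DIAPH1 27 nt has 2, DIAPH2 33 nt and FMNL2 126 nt have 1 each, and the copy of DIAPH2 21 nt lies 9 nt upstream.

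Read density, the median over the exons of a gene of counts per kb, with each library scaled to CPM (1000000 counts over all skipped exon events), was used as the level of each gene. DIAPH1 had the highest density of the 6 genes in every library, with 54.7 and 50.3 in the RBFOXi libraries and 15.6 and 58.0 in the SCRM libraries. FMNL2 followed with 20.1, 23.7, 2.59 and 30.0, and FMNL3 with 16.5, 23.4, 7.28 and 30.1, in the same order of libraries. The order of the FMNL genes was not the same in every library. DIAPH3 (11.1, 9.84, 2.02 and 12.6) and DAAM1 (7.51, 9.60, 1.31 and 9.59) were lower, and DIAPH2 (4.60, 5.40, 2.01 and 5.15) was the lowest outside SCRM replicate 1. SCRM replicate 1 was lowest for all 6 genes. The difference between groups was within the spread between the SCRM libraries, and 0 of the 6 genes and 0 of 7573 genes tested (0%) passed limma at an adjusted p-value under 0.05, with an unadjusted p-value under 0.05 in 4 genes (0.0528%) and in none of the formins. Low values of SCRM replicate 1 were also seen outside the formins, with a median ratio to SCRM replicate 2 of 0.652 over all genes. In all 6 formins SCRM replicate 1 lay further below SCRM replicate 2 than that ratio. The percentile of each formin among all genes was also lower than in SCRM replicate 2, except for DIAPH2 (15.5 against 13.0). For FMNL2 it was 19.3 against 57.8. The cause was not tested. In bulk samples, fewer cells that express a gene and less of its RNA per cell cannot be told apart.

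**Figure D5:**
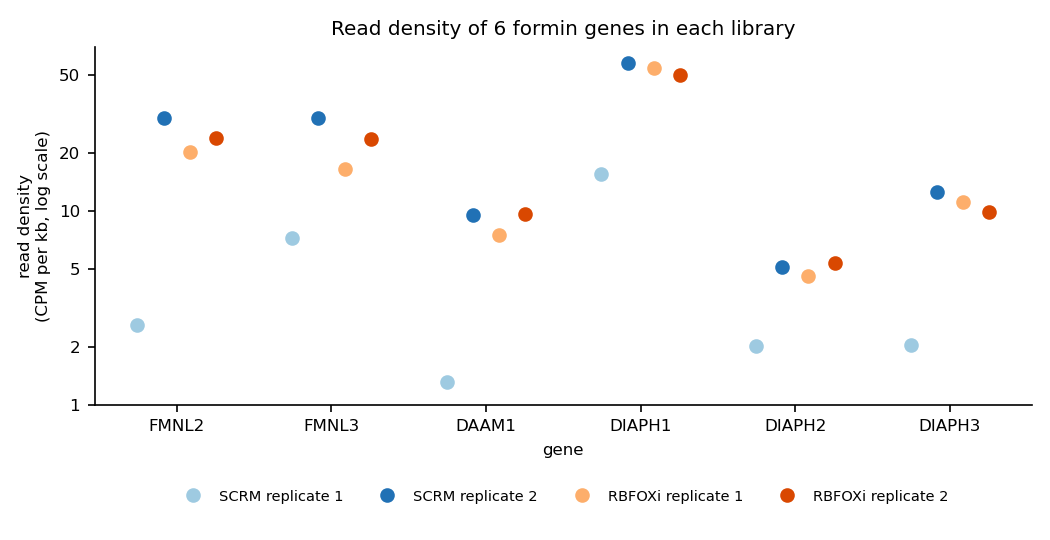
Read density (CPM per kb, log scale) of the 6 formin genes in each library. SCRM replicate 1 is the lowest library in every gene, at 15.6 in DIAPH1 and 1.31 in DAAM1, and the other 3 libraries lie above it.

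Other genes of actin assembly were read from a list of 95 genes, of which 71 had a tested skipped exon. Of their 376 tested events 3 (0.798%, against 0.0682% of all tested events) were called, all lower with RBFOXi. They lie at 2 distinct exons, since the ABI1 exon is in 2 of them. An unadjusted p-value under 0.05 (limma) was found in 30 (7.98%, against 3.61% of all tested events). All 3 lie in the group of the Arp2/3 complex, which builds branched actin networks, and its activators (1.96% of 153 tested events). In the groups of other formins (30 events), formin partners (38) and filament turnover (83), limma called 0. With 0.0682% called over all tested events, groups of this size would rarely hold a call, so these zeros show nothing about them. Events at an unadjusted p-value under 0.05 (limma) numbered 2 (6.67%), 6 (15.8%) and 8 (9.64%). Over the whole list, 11 events were called by Fisher's exact test on summed counts, which leaves out the spread between libraries.

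The called exons of this list were in ABI1, a subunit of the WAVE complex, and in CTTN, the branch-stabilizing protein cortactin. The PSI of the 87 nt ABI1 exon was 0.352 and 0.445 with RBFOXi and 0.766 and 0.779 with SCRM (delta PSI -0.374; limma, adjusted p = 0.0189). That of the 111 nt CTTN exon was 0.469 and 0.374 with RBFOXi and 0.799 and 0.767 with SCRM (delta PSI -0.361; limma, adjusted p = 0.00151). Both falls are similar in size to those of the formin exons, with SCRM values further from full inclusion. Among exons whose groups did not overlap, the next largest difference downward was in the 174 nt exon of ABI1 (delta PSI -0.260; limma, adjusted p = 0.690), and the largest upward were in ARHGEF2 (0.304) and at 2 overlapping exons of ARPC4 (0.226 and 0.139), a subunit of the Arp2/3 complex. None of these was called.

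The tested exons of other genes whose 4 PSI values lay closest to those of the FMNL3 115 nt exon, by Euclidean distance among 4637 exons with a PSI range of at least 0.1, were in UGGT1 (24 nt, distance 0.0288), UTRN (39 nt, 0.0651) and PLOD2 (63 nt, 0.0721). PLOD2 was the called one of these 3. For the DIAPH1 27 nt exon they were in CACNA1A (97 nt, distance 0.0849, called), APBB2 (63 nt, 0.126) and NAV2 (9 nt, 0.138).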

How the data were processed

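Per the labels and the methods of the study, total RNA of each sample was sequenced as paired-end reads, and the authors used STAR 2.4.2a for unique alignment to hg19, then rMATS with the UCSC known genes to count reads for each event. The deposited values used are the authors' raw counts of the inclusion and skipping forms per library, and their effective lengths. The tables also hold the authors' p-value, FDR and inclusion level difference, which were not used.

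The log2 odds of inclusion (pseudocount 0.5) were compared by limma 3.58.1 (R 4.3.3) for RBFOXi against SCRM, with a variance trend on information. Events needed 5 counts in every library, a mean of 20, and over the libraries 4 counts of each form. P-values set each difference against the spread between these 4 libraries, with the variance of an event drawn towards the trend over all tested events. Scripts were tested on simulated data. One event per exon, the one with the most counts, was described. Named exons were those called, with an unadjusted p-value under 0.05, or with a mean PSI of 0.05 to 0.95; of the actin list, called events and the 3 largest differences each way without overlap. One group of the actin list is counted in the total and not reported here on its own. Members and lists were chosen with earlier results of these data known. Sequences and UGCAUG were read from GRCh37 (hg19; AG before and GT after 98.7% of exons), and exons from GENCODE lifted to it. Python 3.11.15, pandas 2.3.3, scipy 1.17.1 and pysam 0.24.0 were used.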

Additional observations from a re-analysis of the deposited data

How the results depend on the processing

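The count of called formin exons was 2. It became 0 with a pseudocount of 0.1 and 1 with a minimum of 20 counts in every library, which removes the DIAPH1 27 nt exon, and it ranged from 0 to 3 when 1 library was left out (0 without SCRM replicate 1 or 2, 1 without RBFOXi replicate 2, 3 without RBFOXi replicate 1). Delta PSI of the 2 called exons kept its sign under every alternative run. With the tests that use the spread between libraries, the adjusted p-value ranged from 2.50e-10 to 0.206 for the FMNL3 115 nt exon and from 1.25e-06 to 0.633 for the DIAPH1 27 nt exon, each lowest with the replicate number as a block. As a plain share of inclusion counts, the difference went from -0.270 to -0.152 for FMNL3 115 nt, from 0.213 to 0.347 for DIAPH2 21 nt, from 0.0582 to 0.117 for FMNL2 126 nt and from 0.0650 to 0.0376 for FMNL2 94 nt. Delta PSI of the FMNL2 94 nt exon went from 0.0650 to -0.000678 without SCRM replicate 1 and to 0.131 without SCRM replicate 2. The formin events of the other types called rose from 0 to 1 with Fisher's exact test on summed counts.

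Over all skipped exon events, 27 were called, against 63 with a quasi-binomial F test, 317 with Fisher's exact test, 1 with a pseudocount of 0.1, 44 with no filter but 1 count per library, and 3 (without SCRM replicate 1) to 63 (without RBFOXi replicate 1) with 1 library left out. In the actin assembly list, 3 became 11 with Fisher's exact test, 0 with a pseudocount of 0.1 and 0 to 5 with 1 library left out. Formin genes with changed read density rose from 0 to at most 6 when 1 library was left out (6 without SCRM replicate 2). Formin exons with the motif went from 10 (23.8%, against 15.8% of tested exons) to 36 over whole introns (85.7%, against 69%). With GCAUG within 300 nt there were 16 (38.1%, against 41.9%), and within 100 nt the shares were 31.0% and 16%. These formin shares count all 42 exons, 22 of them not tested at their most covered event, against a background of tested exons only. The order of the shares is therefore not one of like sets.

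With the replicate number as a block, 3 formin exons, 119 of all events and 8 of the actin list were called. The DIAPH2 33 nt exon was the added one (limma, adjusted p = 0.0442). The labels do not say what the numbers share, and deviations of same-numbered libraries correlated at 0.0944. In each case of a change in call the cause was not tested. A negative binomial quasi-likelihood fit listed among the alternatives was not run. Depth limits the exons at the 5′ ends of the genes most, through SCRM replicate 1.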

Other observations

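In the read density comparison with all libraries, limma called 0 genes, with an unadjusted p-value under 0.05 in 4. Without SCRM replicate 1 it called 0 of 7602 genes, with an unadjusted p-value under 0.05 in 437. Without SCRM replicate 2 it called 3721 of 7559 genes, all 6 formins among them, with an unadjusted p-value under 0.05 in 4169. Whether the 5′ loss of counts in SCRM replicate 1 has a part in this was not tested.

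The DIAPH3 105 nt exon and the FMNL3 75 nt exon have a copy of UGCAUG 62 nt and 43 nt upstream and were included at a PSI of at least 0.974 and 0.992 in every library. The FMNL2 69 nt exon, with a copy 195 nt upstream, had a PSI of 0.953 and 0.976 with RBFOXi and of 1.00 and 0.986 with SCRM (limma, unadjusted p = 0.281).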
